A study of Homo sapiens with 15 samples.

Results

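The genes described here encode CDC45, the GINS subunits GINS1, GINS2, GINS3 and GINS4, and the fork progression factors MCM10, WDHD1, TIMELESS, TIPIN and FEN1. They were taken by symbol, 10 genes of the 17272 with a row in the deposited table, and all 10 passed the filter on low values. The cells were LNCaP, an androgen-sensitive human prostate cancer line that was grown in culture, and RNA was measured by sequencing of polyadenylated transcripts. All cells had been kept for 2 days in medium with charcoal-stripped serum, which is poor in androgens, and then received 1 nM of the synthetic androgen R1881 for 22 h. In 10 libraries R1881 was given with the solvent DMSO, and in 5 libraries it was given with 2 µM enzalutamide, a drug that blocks androgen signalling. No cells without R1881 are part of the comparison, so levels with enzalutamide stand against androgen-stimulated cells only, in a single cell line at a single time.

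When a replication origin fires, CDC45 and the 4-subunit GINS complex join the MCM2-7 ring that was loaded in G1 phase and turn it into the active helicase, the CDC45-MCM-GINS complex, which stays at the fork until replication ends. Other proteins then travel with this helicase or follow it, among them factors that tie it to the polymerases, that hold the fork speed, and that process the lagging strand. Many of these genes are known targets of E2F transcription factors and reach their highest mRNA levels around the start of S phase, so that their level in a culture is known to follow the share of dividing cells. In RNA from whole cultures, fewer cells with a transcript and less of it in each cell cannot be told apart.

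The libraries held between 15830745 and 25416052 counted reads, and the values are scaled read counts as deposited, called CPM in the methods. The way of scaling is not given, and the column sums were not equal. KLK2, TMPRSS2 and FKBP5, genes known to be induced by androgens, had median CPM 96.6%, 91.5% and 96.9% lower with enzalutamide. The prostate luminal markers HOXB13, FOLH1, KRT8 and KRT18 had means above 200 CPM in both groups. Their levels were not constant. KRT8 and KRT18 were lower with enzalutamide (log2 fold changes -2.18 and -2.05), and FOLH1 (1.04) and HOXB13 (0.16) were higher. Of 12 markers of other cell types, 8 had no row in the table and the rest summed to 8.62 to 12.6 CPM with R1881 + DMSO and to 12.8 to 18.3 CPM with R1881 + enzalutamide. Their highest member was COL1A1, a fibroblast marker, with a mean of 9.96 CPM with enzalutamide. The library numbers in the labels fall into series, 51 to 55 and 71 to 75 with R1881 + DMSO and 81 to 85 with R1881 + enzalutamide. What the numbers stand for is not stated, and since all enzalutamide libraries belong to a series of their own, the series and the treatment cannot be told apart.

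Promoter sequence was available for 9 of the 10 genes, in 12 windows that run from 250 bases before to 50 bases after a RefSeq start. An E2F motif (TTTCCCGC, TTTCGCGC, TTTGCCGC or TTTGGCGC, on either strand) lay in 4 of the 12 windows, where 3.31% of 35116 windows of the same length held one. These windows belonged to GINS1, GINS2, GINS3 and TIPIN. CCAAT, the core of NF-Y sites, lay on either strand in windows of 6 of the 9 genes, or 7 of the 12 windows, of which 2 are CDC45 windows that overlap and share matches, against 34.6% of all windows. None of the 12 held a CHR element (TTTGAA or TTCGAA) against 16.4% of all. A match is a run of letters and no proof of binding. The stretches below are RefSeq, GRCh38.p14, 5′ to 3′ on the strand of the gene, trimmed of annotated UTR bases. Each ends at the base before a start, with E2F motifs and CCAAT, or its reverse complement, in capitals. They are a selection and shorter than the windows. The GINS2 window also held a CCAAT that begins 158 bases before the start, and the GINS1 window, not shown, held both motifs. The CDC45 stretch lies inside the annotated gene, and CDC45 had other windows that are not shown.
GINS2 at chr16:85688955-85689054, minus strand, with a reversed E2F motif that begins 31 bases before the start: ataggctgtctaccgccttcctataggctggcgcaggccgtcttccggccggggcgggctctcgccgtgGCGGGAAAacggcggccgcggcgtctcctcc
TIPIN at chr15:66356686-66356785, minus strand, the start further inside the gene, with E2F motifs on both strands that overlap: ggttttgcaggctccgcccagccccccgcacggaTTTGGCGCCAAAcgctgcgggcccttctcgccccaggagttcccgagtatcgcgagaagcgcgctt
CDC45 at chr22:19479726-19479825, plus strand, with a pair of CCAAT matches: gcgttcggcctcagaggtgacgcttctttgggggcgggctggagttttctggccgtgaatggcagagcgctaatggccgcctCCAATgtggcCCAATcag
TIMELESS at chr12:56449427-56449501, minus strand, with 1 CCAAT match: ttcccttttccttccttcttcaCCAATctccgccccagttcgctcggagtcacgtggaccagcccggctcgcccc
FEN1 at chr11:61792811-61792910, plus strand, with no match: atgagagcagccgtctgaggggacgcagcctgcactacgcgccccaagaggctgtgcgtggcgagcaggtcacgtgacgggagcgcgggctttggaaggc

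All 10 genes were expressed at lower levels with enzalutamide, by between 12.7% for TIPIN and 63.9% for CDC45 of the median CPM. Each passed the test at an adjusted p under 0.05 (limma on log2(CPM + 0.5), Benjamini-Hochberg adjustment over 17046 genes), where 32.7% of all genes tested were called lower. In 9 of the 10, every enzalutamide library lay below every R1881 + DMSO library, which held for 20.1% of all genes, and only TIPIN overlapped. The fall was at least 2-fold for 5 genes, CDC45, GINS2, FEN1, GINS3 and MCM10, against 4.19% of all genes. The median log2 fold change of the 10 genes was -1.05, and that of all genes tested was -0.01. Summed over the 10 genes, the libraries with R1881 + DMSO held 382.8 to 434.4 CPM and those with R1881 + enzalutamide 204.4 to 227.7 CPM. Of all genes called, 52.3% were lower with the values as deposited and 39.2% when each library total was set to 1000000, since the deposited columns summed to 1053406 to 1078567 with R1881 + DMSO and to 985580 to 1008992 with enzalutamide. The 10 genes were lower under both scalings, TIPIN without passing the test under the second.

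**Figure D1:**
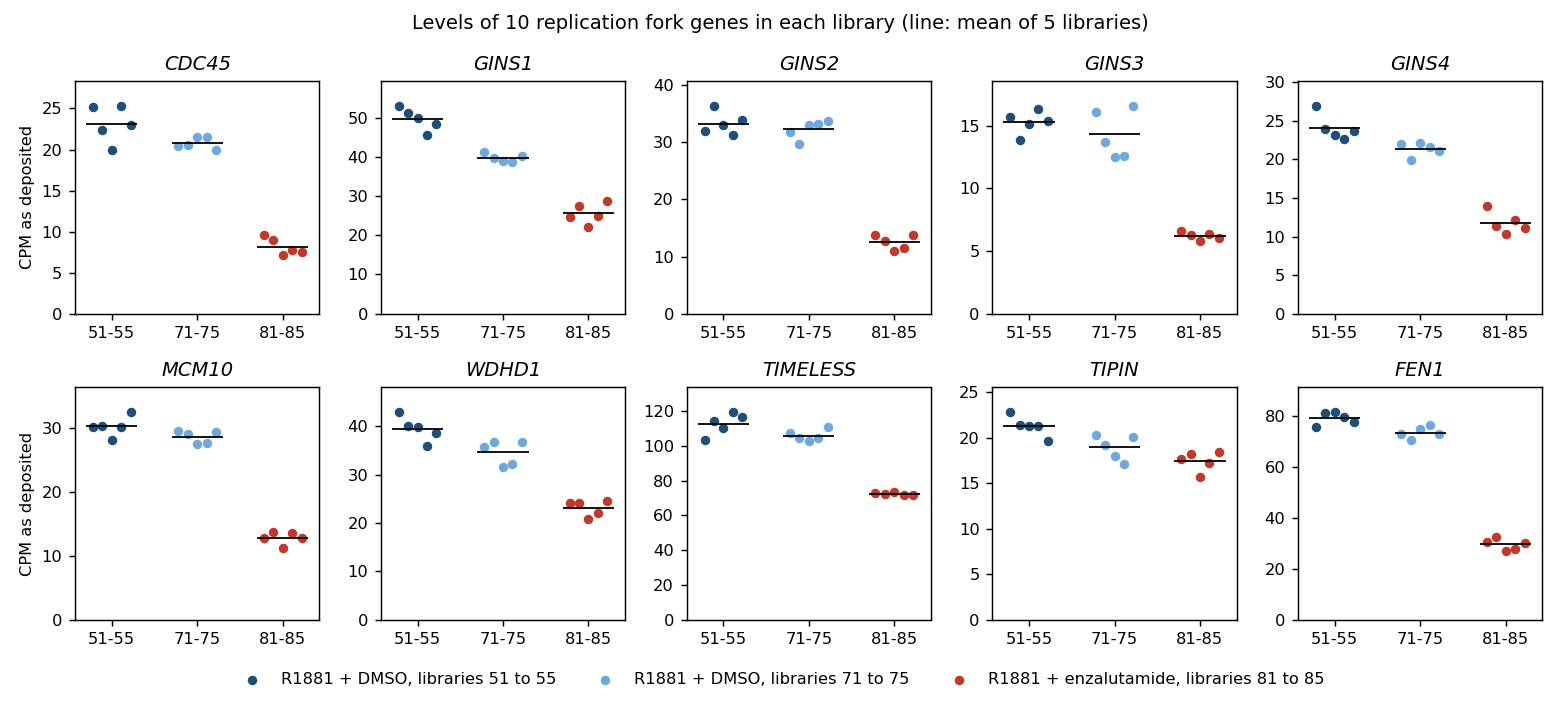
CPM as deposited of each gene (vertical axis, starting at 0) in each library, grouped by library number along the horizontal axis, with R1881 + DMSO in blue and R1881 + enzalutamide in red and a line at the mean of each 5 libraries. The red points lie below all blue points in 9 of the 10 panels, and in the TIPIN panel they reach into the range of libraries 71 to 75.

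One enzalutamide library stood at the edge of its group across these genes. Replicate 2 (library 83) was the lowest of the 5 enzalutamide libraries for 9 of the 10 genes and the highest for TIMELESS. This library also had the lowest column sum of all libraries (985580). The share of all genes that were lowest in it was not computed, so the count is not particular to these genes as far as is known. Without it all 10 genes were still called lower, with log2 fold changes of -1.33 to -0.16 that had moved by at most 0.05.

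CDC45, the subunit that locks the MCM ring and GINS together, was lower with enzalutamide by close to the same factor as GINS2 and FEN1. With R1881 + DMSO its level ranged from 19.9 to 25.3 CPM with a median of 21.5 CPM. With enzalutamide it was 8.94, 7.12, 9.60, 7.46 and 7.76 CPM in replicates 1 to 5. The highest enzalutamide library thus lay 10.3 CPM below the lowest R1881 + DMSO library, and the log2 fold change was -1.38 (standard error, SE, 0.07, limma adjusted p = 8.74e-13). CDC45 lies on chr22:19479457-19520612 (GRCh38, plus strand), and its lowest library held 153 reads on it.

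The GINS genes fell to different extents. GINS2 ranged from 29.7 to 36.4 CPM with R1881 + DMSO (median 33.0 CPM). With enzalutamide, replicates 1 to 5 had 12.7, 11.0, 13.7, 13.7 and 11.5 CPM, all under the lowest R1881 + DMSO library by at least 15.96 CPM. Its log2 fold change was -1.36 (SE 0.06, limma adjusted p = 1.27e-14), a fall of 61.5% of the median CPM. The gene lies on chr16:85676198-85690073 (minus strand).

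GINS3 had the lowest CPM of the 4, not corrected for length, with 12.5 to 16.6 CPM with R1881 + DMSO (median 15.3 CPM). The enzalutamide libraries held 6.28, 5.77, 6.60, 6.02 and 6.39 CPM in replicates 1 to 5, a narrow range well below that of the other group. The median was 58.8% lower, at a log2 fold change of -1.18 (SE 0.07, limma adjusted p = 7.51e-12). GINS3 lies on chr16:58295080-58406147 (plus strand), on the same chromosome as GINS2, and 10.9% of its exon bases are also covered by a non-coding RNA of the opposite strand.

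GINS4 ranged from 19.9 to 26.9 CPM (median 22.4 CPM) with R1881 + DMSO. It held 11.4, 10.3, 13.9, 11.0 and 12.2 CPM with enzalutamide, again without overlap, and the fold change stayed short of 2-fold (log2 fold change -0.92, SE 0.07, limma adjusted p = 2.32e-10). Against libraries 51 to 55 alone its log2 fold change was -1.01, just past 2-fold. The gene (chr8:41529218-41545030, plus strand) shares 21.0% of its exon bases with a non-coding RNA of the opposite strand, and the sources used here do not say whether the counting kept the strands apart.

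GINS1 moved least of the GINS genes, and it was the gene of the 10 that varied most between R1881 + DMSO libraries (coefficient of variation 12.4%). It ranged from 38.6 to 53.0 CPM (median 43.4 CPM) with R1881 + DMSO. With enzalutamide it was 27.6, 22.1, 24.7, 28.7 and 24.98 CPM, so that the groups did not overlap. The log2 fold change was -0.79 (SE 0.08, limma adjusted p = 2.88e-08), and the median was 42.4% lower. GINS1 lies on chr20:25391008-25452700 (plus strand).

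**Figure D2:**
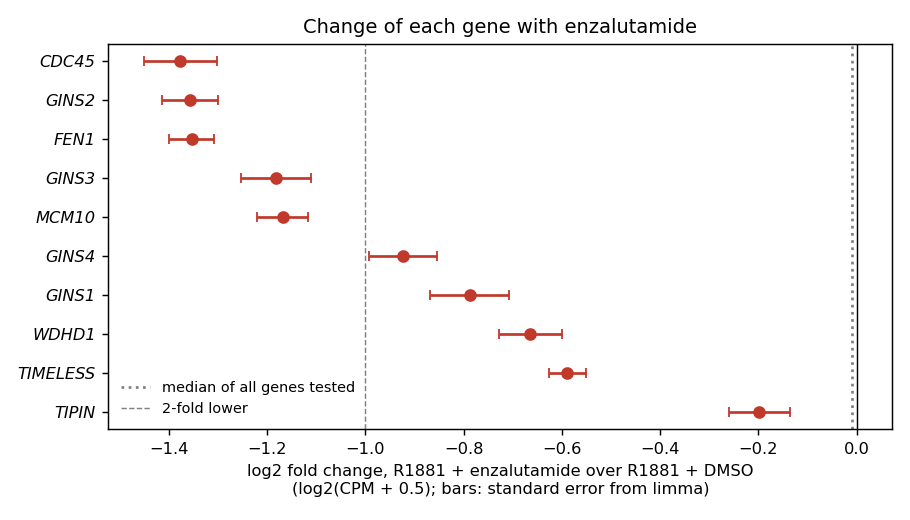
Log2 fold change of each gene, R1881 + enzalutamide over R1881 + DMSO on the log2(CPM + 0.5) scale, with bars for the standard error from limma over 15 libraries. CDC45, GINS2, FEN1, GINS3 and MCM10 lie left of the 2-fold line, and TIPIN at -0.20 lies nearest to the median of all genes at -0.01.

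Within a complex, a change shared by all subunits leaves the ratio of their levels in each library as it was, whatever the size of the library. The log2 ratio was therefore compared between the treatments for the 6 pairs of GINS genes and for TIMELESS to TIPIN, by exact permutation of the treatment labels over the 15 libraries (two-sided), and the p-values were adjusted over these 7 ratios. The smallest p that 5 libraries against 10 allow is 0.000333. The ratio of GINS1 to GINS2 shifted most. Its log2 value was 0.43 ± 0.17 (SD, n = 10) with R1881 + DMSO and 1.00 ± 0.11 (SD, n = 5) with enzalutamide, a difference of 0.57 with a 95% interval of 0.39 to 0.75, without overlap between the groups (exact permutation p = 0.000333, adjusted p = 0.00155). The ratio was thus 1.48-fold higher with enzalutamide, since GINS2 fell further than GINS1.

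The ratios between GINS genes share members and follow in part from each other by arithmetic, so they are not independent results. In the other shifted ratios GINS2 and GINS3 fell further than GINS1 and GINS4. GINS2 fell relative to GINS4 by 0.43 on the log2 scale (95% interval -0.58 to -0.28, exact permutation p = 0.000666, adjusted p = 0.00155), GINS3 relative to GINS4 by 0.26 (interval -0.43 to -0.08, exact permutation adjusted p = 0.00699), and GINS1 rose relative to GINS3 by 0.39 (interval 0.19 to 0.60, exact permutation adjusted p = 0.00233). The ranges of the groups overlapped for these 3 ratios. Against libraries 51 to 55 or libraries 71 to 75 alone, the difference of GINS1 to GINS2 was 0.43 and 0.70, and all ratios called over 15 libraries were called against either series (exact permutation tests, 5 libraries against 5). No difference was detected between GINS1 and GINS4 (0.14, interval -0.03 to 0.30, exact permutation p = 0.101) or between GINS2 and GINS3 (-0.17, interval -0.36 to 0.01, exact permutation p = 0.0683, adjusted p = 0.0796). Both results changed sides when a single library was left out. Without enzalutamide replicate 3 the GINS1 to GINS4 difference was 0.21 (exact permutation adjusted p = 0.014), and without enzalutamide replicate 4 the GINS2 to GINS3 difference was -0.22 (exact permutation adjusted p = 0.0338).

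**Figure D3:**
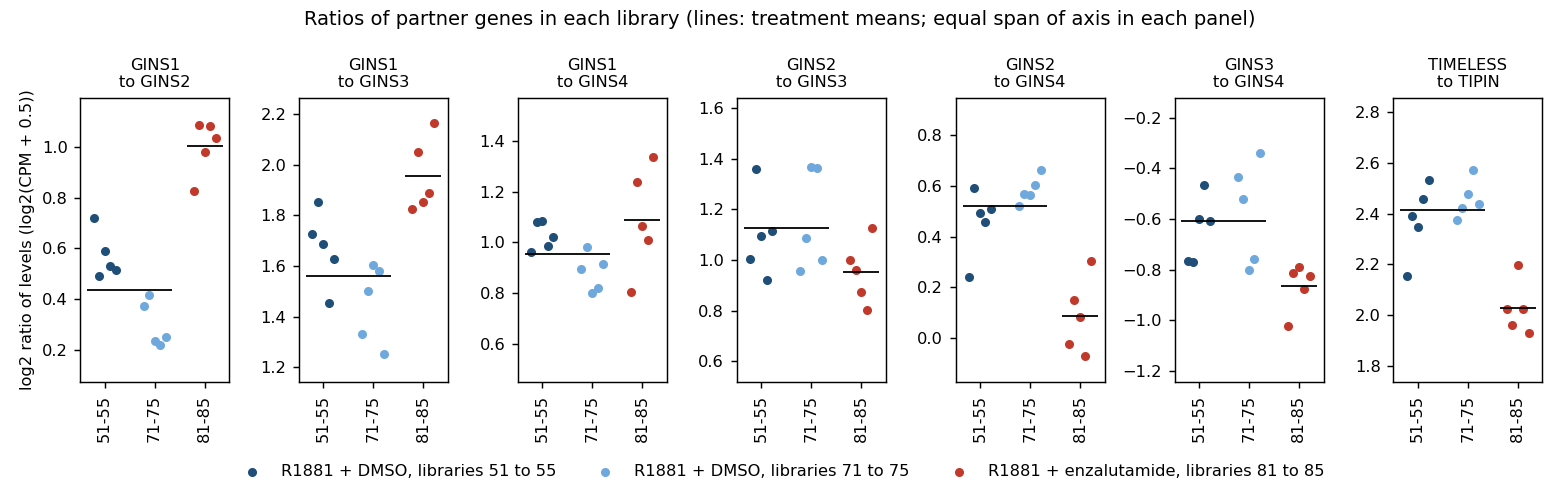
Log2 ratio of the levels of the genes of a complex in each library (log2(CPM + 0.5) of the first gene minus that of the second), grouped by library number, with lines at the means of the 10 R1881 + DMSO and the 5 R1881 + enzalutamide libraries. The span of the axis is equal in all panels, and only the GINS1 to GINS2 panel shows no overlap between the treatments.

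MCM10, a protein that binds the newly assembled helicase and is needed for its activation, fell by more than the median of the 10 genes. It ranged from 27.5 to 32.4 CPM with R1881 + DMSO (median 29.4 CPM) and held 13.8, 11.2, 12.7, 12.8 and 13.6 CPM with enzalutamide. No enzalutamide library came within 13.7 CPM of the other group, and the log2 fold change was -1.17 (SE 0.05, limma adjusted p = 4.70e-14). MCM10 lies on chr10:13161558-13211110 (plus strand).

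WDHD1, an adaptor that ties DNA polymerase alpha to the helicase, fell less. Its level was 31.6 to 42.9 CPM with R1881 + DMSO (median 36.7 CPM), and 24.1, 20.8, 24.1, 24.6 and 22.1 CPM with enzalutamide. The groups were 6.99 CPM apart at their nearest, with a median 34.4% lower (log2 fold change -0.66, SE 0.06, limma adjusted p = 1.39e-08). WDHD1 lies on chr14:54938949-55027105 (minus strand).

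TIMELESS and TIPIN form the complex that sits ahead of the helicase, protects stalled forks and helps to pass the checkpoint signal on. TIMELESS was the gene of the 10 with the highest CPM and the smallest relative spread with enzalutamide (coefficient of variation 1.27%), at 72.4, 73.4, 73.1, 71.5 and 71.5 CPM in replicates 1 to 5, against 103 to 119 CPM with R1881 + DMSO (median 109 CPM). Its log2 fold change was -0.59 (SE 0.04, limma adjusted p = 2.08e-11), without overlap. TIMELESS lies on chr12:56416363-56449426 (minus strand).

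TIPIN changed least of the 10 genes. It ranged from 17.1 to 22.8 CPM with R1881 + DMSO (median 20.2 CPM) and was 18.2, 15.6, 17.6, 18.4 and 17.2 CPM with enzalutamide. The highest enzalutamide library exceeded the lowest R1881 + DMSO library by 1.31 CPM, and the log2 fold change was -0.20 (SE 0.06, limma adjusted p = 0.00925), or a median 12.7% lower. This call was lost against libraries 71 to 75 alone (log2 fold change -0.11, adjusted p = 0.151 from limma) and with library totals set to 1000000 (log2 fold change -0.11, adjusted p = 0.12 from limma). The log2 ratio of TIMELESS to TIPIN went from 2.42 ± 0.12 (SD, n = 10) to 2.03 ± 0.10 (SD, n = 5), a difference of -0.39 with a 95% interval of -0.52 to -0.26 (exact permutation p = 0.000666, adjusted p = 0.00155). TIMELESS therefore fell further than its partner. The size of the library enters this ratio only through the pseudocount, and the difference was -0.389 with a pseudocount of 0.1 and -0.392 with 1. TIPIN (chr15:66336191-66386746, minus strand) shares 21.1% of its exon bases with RPL9P25, a processed pseudogene on the same strand, so its counts are uncertain to the extent that reads of a ribosomal protein gene copy were counted on it.

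FEN1, the nuclease that trims the flap from each Okazaki fragment on the lagging strand, had a fold change close to those of CDC45 and GINS2. With R1881 + DMSO it ranged from 70.5 to 81.5 CPM (median 76.1 CPM), and with enzalutamide it was 32.3, 27.1, 30.7, 30.2 and 27.6 CPM. The groups lay 38.2 CPM apart, the widest gap of the 10 genes, and the log2 fold change was -1.35 (SE 0.05, limma adjusted p = 3.48e-16). FEN1 lies on chr11:61792911-61797238 (plus strand), and 2.23% of its exon bases are shared with FADS2 on the same strand.

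Levels can be compared between genes only per length, here as median CPM per kilobase of all annotated exons (GENCODE v44). FEN1 stood highest with R1881 + DMSO at 34.6 CPM per kilobase, followed by TIMELESS at 18.6 and GINS2 at 10.3, none of which overlapped the next gene in the order over the libraries. TIPIN (7.36), CDC45 (7.22), WDHD1 (5.75), GINS1 (5.41) and MCM10 (5.38 CPM per kilobase) overlapped from neighbour to neighbour. GINS4 at 4.12 and GINS3 at 2.99 CPM per kilobase closed the order, each apart from its neighbour. Under enzalutamide the order changed, with FEN1 (13.8) and TIMELESS (12.4) overlapping at the top and TIPIN next at 6.43 CPM per kilobase, above GINS2. GINS2 (3.95), WDHD1 (3.77), GINS1 (3.12), CDC45 (2.61), MCM10 (2.35) and GINS4 (2.09 CPM per kilobase) overlapped from neighbour to neighbour, and GINS3 stayed last at 1.23. The order depends on the length used. Levels per kilobase of the canonical transcript were added after the data were seen. By this measure GINS1 came to 13.1 CPM per kilobase with R1881 + DMSO and stood next to TIMELESS. GINS4 (5.95) then stood below GINS3 (6.93), and the highest gene exceeded the lowest 6.34-fold in place of 11.6-fold.

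**Figure D4:**
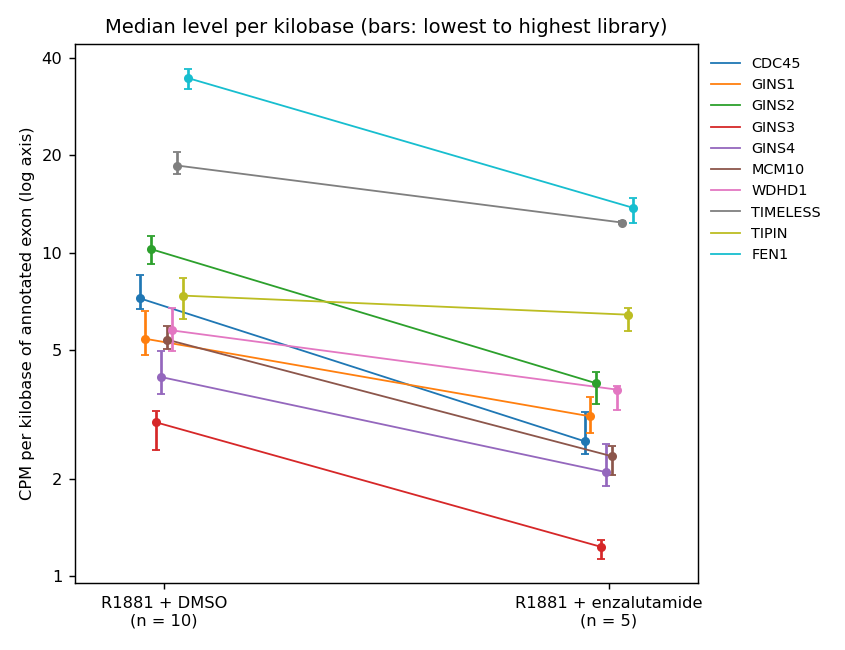
Median CPM per kilobase of annotated exon (log axis) of each gene with R1881 + DMSO and with R1881 + enzalutamide, with bars from the lowest to the highest library and a line joining the groups. The TIPIN line is the flattest and crosses that of GINS2, and FEN1 comes down to the level of TIMELESS.

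Libraries of the same label were not all alike. Of the 10 genes, GINS1 alone was called lower in libraries 71 to 75 than in libraries 51 to 55 (limma, 3 groups). In this contrast 2.76% of all genes were called lower and 0.945% higher. GINS1 was 45.5 to 53.0 CPM in libraries 51 to 55 and 38.6 to 41.3 CPM in libraries 71 to 75, without overlap (log2 difference -0.31, SE 0.06, limma adjusted p = 0.013). Its log2 fold change with enzalutamide was -0.94 against the first and -0.63 against the second series and was called against both. The background of this contrast, 632 genes called in either direction, rested on single libraries. Without R1881 + DMSO replicates 5, 6, 7, 9 or 10 it was 88 to 132 genes, without R1881 + DMSO replicate 3 it was 962, and without enzalutamide replicate 2 it was 1117. The call of GINS1 held with each of these left out. For the other 9 genes the differences between the series were -0.19 to -0.04, with adjusted p-values of 0.0858 to 0.7 from limma.

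The partners of these genes at origins and forks fell with them in most groups. Of 68 genes on 8 lists of origin and fork genes, 54 were lower with enzalutamide, 3 were higher and 11 were not called (limma, adjusted p under 0.05), beside the 32.7% of all genes that were lower. The lists were drawn up with earlier results of these data known, so they describe the pathway and carry no test of their own. All 6 genes of the MCM2-7 ring, with which CDC45 and GINS assemble, were lower, from MCM5 (log2 fold change -1.18) to MCM6 (-0.59), at a median of -0.83. Of 9 licensing genes, which load that ring or, like GMNN, restrain its loading, 6 were lower, led by CDC6 (-1.60), and ORC4 was higher (0.16). Of 8 origin firing factors 7 were lower, led by TICRR (-1.29), which brings CDC45 to the origin, and MTBP, its partner, was not called (-0.14, adjusted p = 0.362).

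Behind the helicase, 10 of 12 genes of the replicative polymerases and primase were lower, from PRIM2, a subunit of primase, at -0.91 to POLD4 at -0.07, which was not called. Of 10 clamp and clamp loader genes 9 were lower, led by PCNA (-0.81), the sliding clamp that FEN1 binds, and CHTF8 was not called (-0.01). Among 5 other genes of Okazaki fragment processing, 3 were lower, led by the nuclease DNA2 (-0.86), and RNASEH2B, a subunit of the enzyme that removes RNA from DNA, was higher (0.40, adjusted p = 5.64e-06 from limma). The median log2 fold changes of these 3 lists were -0.57, -0.63 and -0.69, each above the -1.05 of the CDC45-GINS and fork progression genes.

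The proteins that work beside TIMELESS and TIPIN and those that unload the helicase made up the lists with the smallest median changes of the 8. Of 11 fork protection and chromatin genes 7 were lower and 4 were not called, at a median of -0.30. CLSPN, which works with TIMELESS and TIPIN in the checkpoint, was lowest at -1.37 (62.7% lower median CPM), level with ASF1B at -1.37 (64.6% lower). ASF1A, a histone chaperone, was not called at 0.10. Of 7 genes that unload the helicase at the end of replication, 6 were lower at a list median of -0.31, led by TRAIP (-0.50), and UBXN7 was higher (0.25).

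Of 8 E2F genes 7 were lower, from E2F7 (-1.47) to E2F3, which was not called (-0.04). All 10 S phase markers were lower, from RRM2 (-1.69) to CCNE1 (-0.25), and their sum went from 797 to 986 CPM with R1881 + DMSO to 469 to 535 CPM with enzalutamide. All 10 G2/M phase markers were lower as well, from MKI67 (-1.25) to CCNB1 (-0.58), with a sum of 721 to 939 CPM against 401 to 475 CPM. Both sums moved with the fall of the CDC45-GINS and fork progression genes, and their part in it was not tested.

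**Figure D5:**
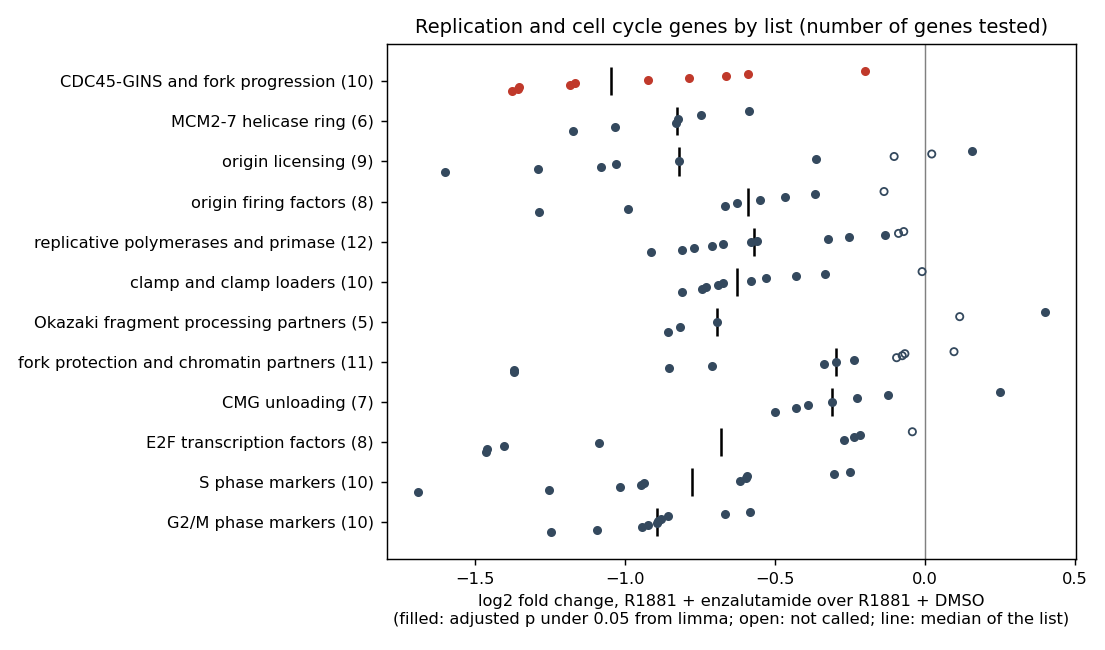
Log2 fold changes, R1881 + enzalutamide over R1881 + DMSO, of the 10 genes (red) and of the genes on 11 lists of replication and cell cycle genes, with filled points for genes called at an adjusted p under 0.05 from limma, open points for those not called and a line at the median of each list. The MCM2-7 ring, the S phase markers and the G2/M markers have filled points only, all left of 0, and the fork protection and unloading lists have medians of -0.30 and -0.31.

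Over the 15 libraries, the genes outside the 10 whose profile was most like their mean profile were AK4P3, UBE2G1, PPP2CB, MCM4 and IFT57. Likeness was the root-mean-square difference of the centred log2(CPM + 0.5) profiles among 12154 genes with a mean of at least 5 CPM, and these 5 lay between 0.0537 and 0.0584. Their log2 fold changes were -1.03 to -0.88, which is part of the selection, since the profiles span both treatments. MCM4, a subunit of the MCM2-7 ring, is the only replication gene among them, and AK4P3 is a pseudogene copy, so its counts are uncertain. Of the 10 genes themselves, GINS4 lay nearest to the mean profile (0.0823) and TIPIN furthest (0.363).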

How the data were processed

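Polyadenylated RNA of LNCaP cells was sequenced from a stranded library preparation (single-end reads). Reads were mapped by the authors to GRCh38 (STAR) and assigned to genes (featureCounts of Subread). The deposited values are a scaled signal, called CPM in the methods. The sources used here do not give the annotation, the strand setting, the gene filter or the scaling. All values were whole multiples of 1 read within 0.01 reads, and the count tests ran on these recovered reads. Groups and replicates follow the sample labels, whose group sizes the methods text gives the other way round. The methods call the libraries biological replicates. The labels do not tie them to separate cultures, and p-values measure the spread between these libraries. In each of 55 pairs of libraries with a common treatment, the reads differed beyond sampling noise.

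limma 3.58.1 (R 4.3.3) was fitted to log2(CPM + 0.5) of 17046 genes with a mean of at least 0.5 CPM, with a mean-variance trend and treatment as the only term. The pseudocount understates the change of genes with few reads. On simulated reads with these library sizes, 100% of 200 genes changed 2-fold were recovered, with 6 false calls among 16846 unchanged genes. The changed genes were drawn from those with a mean of at least 5 CPM, and all libraries were scaled alike. These rates therefore do not cover rarer genes, or data in which most genes are called and column totals differ by treatment. Ratios were compared with exact permutation tests, whose intervals are the shifts not refused at 0.05. The alternatives were edgeR 4.0.16, DESeq2 1.42.0, other scalings, filters and pseudocounts, replicate blocks, each R1881 series alone and each library left out. Positions and exon lengths are from GENCODE v44. The 10 genes, the lists and the tests were chosen with earlier results of these data known. Named are the 10 genes, the gene with the lowest and the gene with the highest log2 fold change of each list, 3 androgen-induced genes and the 5 nearest profiles. COL1A1, GMNN and ASF1B were named after their values were seen. Some genes that the rule or the lists name are not reported here. The number of libraries and, for few reads, counting error set the precision.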

Additional observations from a re-analysis of the deposited data

Results flagged for a closer look

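The log2 ratio of GINS2 to GINS4 in R1881 + DMSO replicate 9 (library 51) was 0.24, and those of the other 9 R1881 + DMSO libraries lay between 0.46 and 0.66. Its gap to the nearest of them was 0.515 of the range of the group, above the critical value of 0.466. Of 34 groups of 5 or 10 libraries examined, this was the only one with such a library, where chance gives about 1.7. Without this library the difference in the ratio between treatments was -0.46 (exact permutation adjusted p = 0.00117).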

How the results depend on the processing

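Across 28 other settings, 278 of the 280 values of the 10 genes kept their direction and their side of the threshold, and the other 2 were those of TIPIN given above. Between 9 and 10 genes were lower, 5 to 6 of them at least 2-fold, at medians of -1.11 to -0.95. The count of genes called between the R1881 series was 1000 with DESeq2 (632 with limma), and 88 to 1117 with each library left out. GINS2 to GINS3 passed with a pseudocount of 1 (-0.20) and ran from -0.22 to -0.14 with each library left out, and GINS1 to GINS4 ran from 0.0737 to 0.2075. On the 11 lists, with E2F and cell cycle genes, 75 to 82 genes were lower (81 with the settings of the report), and those that were higher, 3 as reported, were 5 with TMM factors and with edgeR and 6 with library totals set to 1000000. With a replicate block by the number in the titles 10043 genes were called, against 10660 without, and the block by the last digit of the library number gave 10720. All 10 genes stayed lower under both blocks. The title numbers did not pair the libraries (correlations of -0.07 to 0.07). For the last digits the correlations were uneven, from -0.42 to 0.67 and over 0.1 in 2 of 10 pairs. Enzalutamide library 83 gave both ends of that range, 0.67 with library 73 and -0.42 with library 53. GINS3 and CDC45 had the fewest reads, at least 124 in each library, so their values have the largest counting error.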
